A study of Homo sapiens with 6 samples.

Results

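Antioxidant, glutathione and NRF2 genes were examined in K562 cells with and without overexpression (OE) of PCBP1, an RNA-binding protein that also carries iron to other proteins. The 40 genes were taken from a list of symbols for superoxide and peroxide removal, glutathione, thioredoxin, NRF2 control and ferroptosis, out of 62252 genes in the files, and are called the redox genes here. Of these, 39 had a mean count above 10 over the libraries and were tested. GPX7, an endoplasmic reticulum peroxidase, had no more than 2 counts in any library and was not tested.

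K562 is a human leukemia line with red cell features. Both groups carry Flag-tagged PCBP1 under a tet-inducible promoter in the AAVS1 locus, placed by cassette exchange in a single K562flox clone and selected with puromycin as a polyclonal line. Polyadenylated RNA was sequenced from 3 libraries without doxycycline (−Dox) and 3 with it (+Dox). Since Dox was given to one group alone, effects of the drug itself and of PCBP1 OE cannot be told apart. The dose and time of Dox for these libraries are not given in the sources used here. The labels number the libraries of each group and do not say that they came from separate cultures, so p-values measure the spread between these libraries, which may be technical. Without Dox, the summed estimated counts of replicates 1, 2 and 3 were 84177316, 80104627 and 74766040. With Dox they were 70905656, 82263502 and 82449808.

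As background, superoxide dismutases turn superoxide into hydrogen peroxide, which catalase, glutathione peroxidases and peroxiredoxins then remove. Glutathione and thioredoxin return the glutathione peroxidases and peroxiredoxins to their reduced form, with NADPH as the final electron source. NRF2, encoded by NFE2L2, switches on many of these genes through antioxidant response elements, while KEAP1 holds NRF2 down and BACH1 occupies the same DNA elements as a repressor. Red cells carry iron-rich heme and depend on catalase, peroxiredoxin 2 and glutathione.

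PCBP1 (chromosome 2, 70087477 to 70089203, GRCh38) was first checked in every library, as the induced gene. Its normalised level was 247.5, 269.5 and 266.9 CPM (counts scaled to library size and normalised) in −Dox replicates 1, 2 and 3, and 1030, 936.4 and 1037 CPM in +Dox replicates 1, 2 and 3. All +Dox libraries lay above all −Dox libraries, as their labels say. The increase was 3.83-fold (log2 fold change 1.94 ± 0.06, SE; adjusted p = 5.22e-10, edgeR quasi-likelihood test with Benjamini-Hochberg adjustment over 21045 genes). The exact permutation test of the 6 values gave p = 0.1, two-sided, the smallest that 3 against 3 libraries allow. Endogenous PCBP1 and the Flag-PCBP1 transgene share this coding sequence and cannot be told apart in these counts.

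Of the 39 tested redox genes, 15 passed an adjusted p of 0.05 after PCBP1 OE. The 9 higher genes were SOD3, CAT, PRDX2, PRDX5, TXN2, GSS, MGST3, BACH1 and LRRK2. The 6 lower genes were SOD2, TXNIP, GSR, MGST1, NQO2 and ACSL4. Both directions occurred among the superoxide dismutases, the thioredoxin system, the glutathione enzymes and the glutathione S-transferases. Nearly all changes were small, from a 23.5% decrease to a 38.8% increase among the 13 called genes other than SOD3 and LRRK2. Only these last 2 also passed an absolute log2 fold change of 1 and so were differentially expressed genes (DEGs), and both are expressed at very low levels.

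The called redox genes made up 38.5% of those tested, against 15.8% of all 21045 genes tested. The list was chosen with earlier results of these data known, so its shares are not independent evidence. Higher calls made up 23.1%, against 8.16% of all genes, and lower calls 15.4%, against 7.68%. DEGs were 1.46% of all genes. All 3 values of one group lay above all 3 of the other for 21 redox genes (53.9%) and for 33.2% of all genes. Abundant genes pass the test more often in these data, and most redox genes are abundant. Among genes with a mean of at least 10 CPM, 13 of 33 redox genes (39.4%) and 26.6% of all 9289 such genes were called. The median absolute log2 fold change was 0.16 over the 39 redox genes, 0.18 over all genes tested and 0.11 over genes with at least 10 CPM. The median signed log2 fold change of the redox genes was 0.04, and that of all genes was 0.01.

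**Figure D1:**
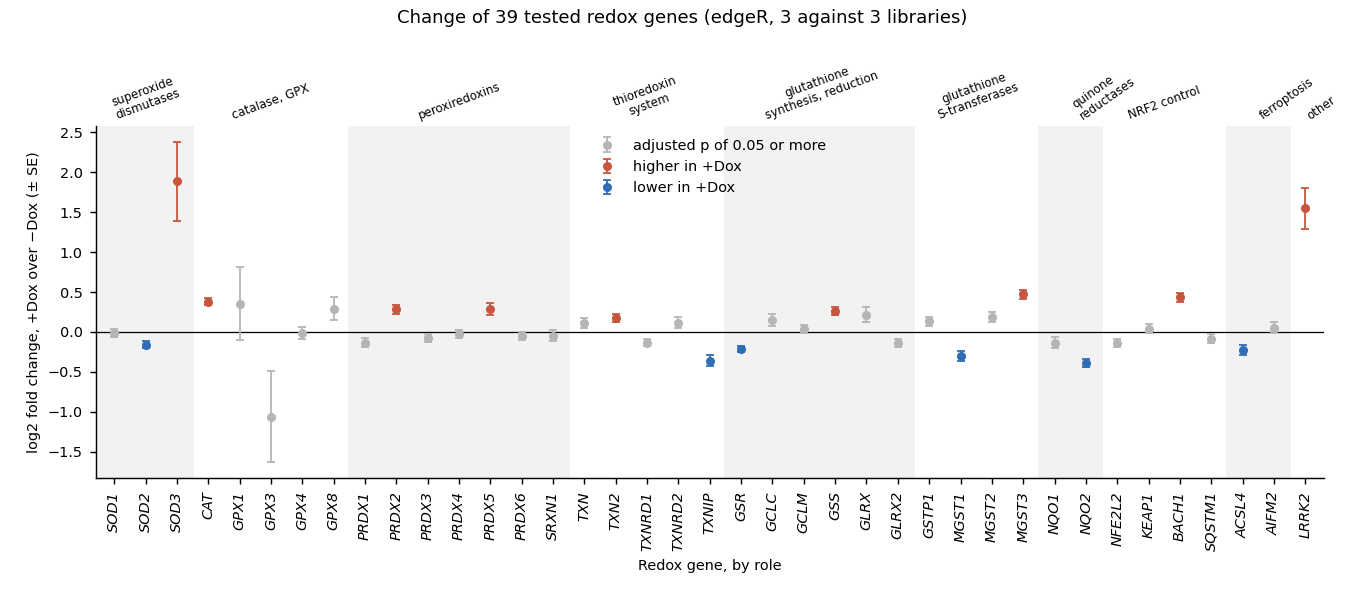
Log2 fold change of +Dox over −Dox (y axis) for the 39 tested redox genes (x axis, ordered by role), with SE bars from the edgeR fit of 3 against 3 libraries. Red marks the 9 genes called higher, blue the 6 called lower and grey the 24 not called; SOD3 and LRRK2 stand far above the others, and GPX3 and GPX1 have wide bars.

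Levels between genes were compared in TPM, which is scaled for transcript length. GSTP1, a cytosolic glutathione S-transferase, was the most abundant redox gene, at 1243 ± 57.9 TPM (SD, n = 6). It was followed by PRDX1 at 689.8 ± 42.4, the cytosolic thioredoxin gene TXN at 668.8 ± 29.4 and SOD1 at 624 ± 13.1 TPM. The order of PRDX1 and TXN was not the same in the groups. PRDX1 was above TXN in each −Dox library (725.3 ± 13.7 and 649.2 ± 26.8 TPM) and below it in each +Dox library (654.4 ± 23.4 and 688.4 ± 17.0 TPM, SD, n = 3 each), where their ranges overlapped. This difference in order was not tested. At the low end, GPX1, GPX3, GPX7, SOD3 and LRRK2 were each below 1 TPM on average. The summed level of the 40 genes was 6186, 6251 and 6169 TPM in the −Dox libraries and 6179, 6194 and 6319 TPM in the +Dox libraries. These sums overlapped between the groups. The 4 glutathione S-transferases summed to 1471 ± 11.7 TPM in −Dox and 1617 ± 10.6 in +Dox (SD, n = 3 each), without overlap. Most of that difference came from GSTP1, at 1192 ± 12.7 and 1295 ± 12.2 TPM, which did not pass the test on counts given below. The sums of the quinone reductases (270.1 ± 8.48 and 221.6 ± 10.7 TPM), the superoxide dismutases (749.9 ± 15.6 and 714.1 ± 7.81), the glutathione enzymes (214.9 ± 6.08 and 201.2 ± 2.02) and the ferroptosis genes (39.3 ± 2.32 and 34.6 ± 1.93) were lower in +Dox, also without overlap. Those of the other 4 roles with several genes overlapped. These sums were not tested.

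**Figure D2:**
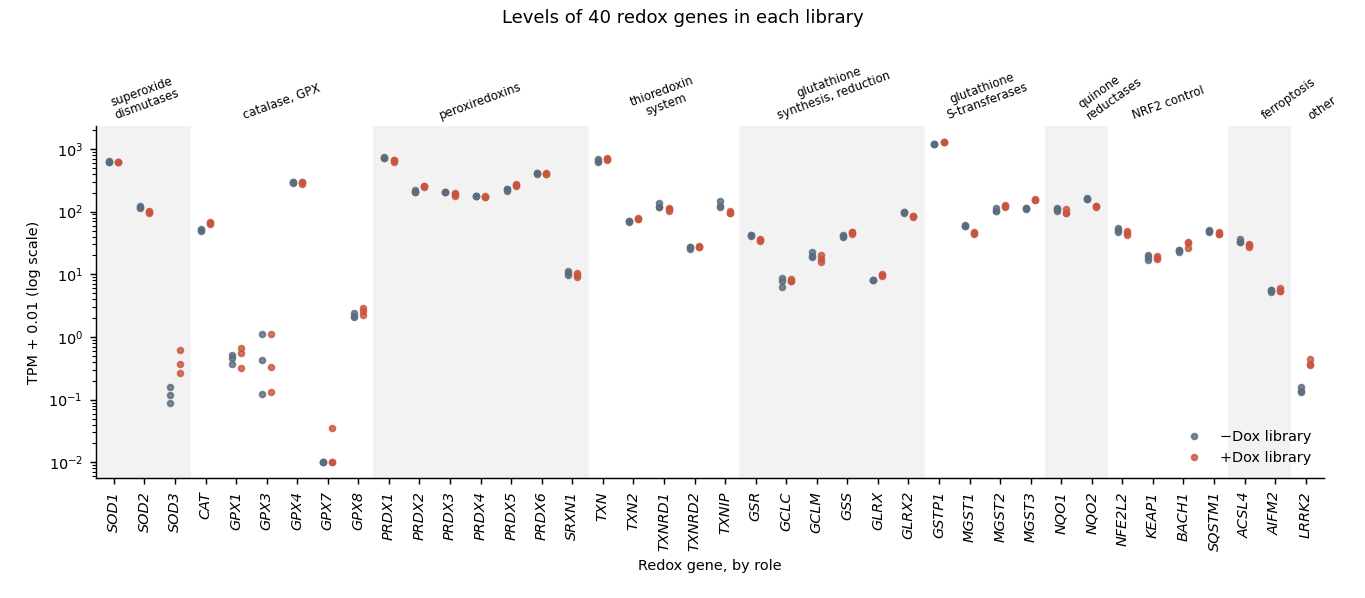
Level of each of the 40 redox genes (x axis, by role) in each library, as TPM + 0.01 on a log scale (y axis), with grey points for the 3 −Dox and red points for the 3 +Dox libraries. GSTP1 is highest at 1243 TPM on average, GPX7 lies at the floor in most libraries, and the spread between groups is small beside the spread between genes.

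Among the superoxide dismutases, cytosolic SOD1 did not pass the test. It was at 412.3, 459.9 and 429.5 CPM in −Dox replicates 1 to 3 and 437.1, 405.7 and 445.2 CPM in +Dox replicates 1 to 3, and the groups overlapped (log2 fold change −0.02 ± 0.05, SE). SOD2, the mitochondrial enzyme, was 10.4% lower (log2 fold change −0.16 ± 0.05, adjusted p = 0.0325, edgeR). This call was lost without replicate 1 or 2 of −Dox and without replicate 1 or 3 of +Dox, with adjusted p between 0.0639 and 0.11.

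SOD3, which encodes the secreted dismutase, rose from a very low level. Its counts were 8, 12 and 15 in −Dox replicates 1 to 3 and 60, 27 and 41 in +Dox replicates 1 to 3. The groups did not overlap, and +Dox replicate 1 was the highest. The increase was 3.69-fold (log2 fold change 1.89 ± 0.50, adjusted p = 0.0219, edgeR). Without replicate 1 or 2 of −Dox, or replicate 1 or 3 of +Dox, the adjusted p was 0.0554 to 0.126 and the call was lost, with log2 fold changes of 1.46 to 2.17 over the 6 libraries left out in turn. The study lists SOD3 and LRRK2 under a reactive oxygen species term that it chose on these same samples, so their listing is not independent evidence.

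CAT, the gene of catalase (chromosome 11, 34438934 to 34472060), had one of the tightest increases. It was at 108.6, 108.7 and 104.7 CPM in the −Dox libraries and at 140.6, 138.4 and 139.5 CPM in the +Dox libraries. The gap between the groups was many times the spread within either. The rise was 1.3-fold (log2 fold change 0.38 ± 0.04, adjusted p = 0.000111, edgeR) and was called under all 14 settings run, the main one included.

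GPX4, the phospholipid peroxidase that guards membranes from ferroptosis, had by far the highest TPM of the listed glutathione peroxidases, at 291.2 ± 8.77 (SD, n = 6). It was at 166.9, 195 and 178.7 CPM in −Dox and 188.3, 160.8 and 186.9 CPM in +Dox. The groups overlapped, and the log2 fold change was −0.01 ± 0.07 (adjusted p = 0.934, edgeR). GPX1, the cytosolic peroxidase, had 14 to 45 counts and GPX3, the plasma peroxidase, 7 to 29 counts per library, and neither passed the test. Of the annotated exon bases of GPX1, 39.9% lie within a transcript of another gene on the same strand. That gene averaged 87 counts per library. The GPX1 counts are uncertain, and so is the rank of GPX1 below GPX4. GPX8, an endoplasmic reticulum member, averaged 3.16 ± 0.15 CPM without Dox and 3.87 ± 0.46 with Dox (SD, n = 3 each), with no overlap between the groups and an adjusted p of 0.184 by edgeR.

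Of the peroxiredoxins, thiol enzymes that reduce peroxides, PRDX2 and PRDX5 rose. PRDX2, the main peroxiredoxin of red cells, was at 148.4, 163.2 and 164.9 CPM in −Dox replicates 1 to 3 and 204.5, 184.3 and 191.2 CPM in +Dox replicates 1 to 3. All −Dox values were lower than all +Dox values. The increase was 1.22-fold (log2 fold change 0.28 ± 0.06, adjusted p = 0.004, edgeR), called under all 14 settings.

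PRDX5, found in mitochondria, peroxisomes and cytosol, was at 122.6, 147.7 and 136.3 CPM in −Dox and 170.9, 149.8 and 176.1 CPM in +Dox. The lowest +Dox library lay just above the highest −Dox library. The log2 fold change was 0.29 ± 0.07 (adjusted p = 0.0167, edgeR), and the call was lost without −Dox replicate 3, +Dox replicate 1 or +Dox replicate 3, at adjusted p of 0.0548 to 0.0871.

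PRDX1, the most abundant peroxiredoxin, was at 531.2, 581.2 and 565.1 CPM in −Dox and 504.4, 486.5 and 539.5 CPM in +Dox. The groups overlapped, and the log2 fold change of −0.13 ± 0.05 did not pass (adjusted p = 0.11, edgeR). It passed by DESeq2 (0.0422) and by edgeR without −Dox replicate 1 (0.0472). Of the PRDX1 exon bases, 29.8% overlap MMACHC on the opposite strand, which averaged 1236 counts per library. The strand setting of the counting is not stated, so how reads of this overlap were divided is uncertain. PRDX3, PRDX4 and PRDX6, and SRXN1, the sulfiredoxin that repairs overoxidized peroxiredoxins, had log2 fold changes between −0.08 and −0.02 with overlapping groups.

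**Figure D3:**
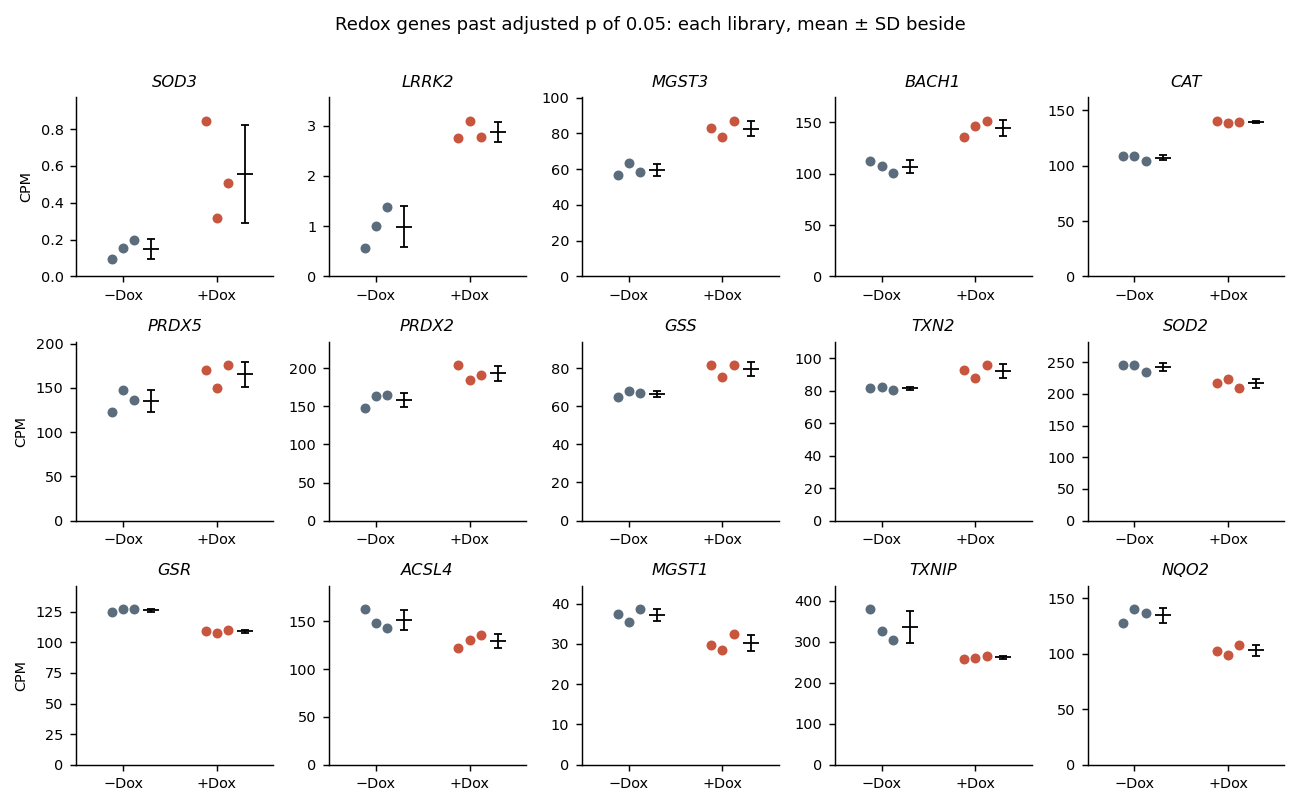
Normalised level in CPM (y axis, from 0) of the 15 redox genes past an adjusted p of 0.05, ordered by log2 fold change from SOD3 to NQO2. Points are the 3 −Dox (grey) and 3 +Dox (red) libraries, bars beside them the mean ± SD; in all 15 panels the groups do not overlap, with gaps that range from narrow in PRDX5 to wide in CAT.

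In the thioredoxin system, TXNIP showed the clearest difference. Its product binds and inhibits thioredoxin and also restrains glucose uptake. TXNIP was at 379.9, 325.2 and 303.8 CPM in −Dox replicates 1 to 3 and 258.4, 261.6 and 265.7 CPM in +Dox replicates 1 to 3. The −Dox libraries were spread widely, the +Dox libraries were close together, and the groups did not overlap. The level fell by 22.1% (log2 fold change −0.36 ± 0.07, adjusted p = 0.00322, edgeR), and it was called lower under all 14 settings. TXN itself was at 284.4, 323.5 and 289.3 CPM in −Dox and 333.2, 300.7 and 338.2 CPM in +Dox. These values overlapped (log2 fold change 0.12 ± 0.06, adjusted p = 0.234, edgeR).

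TXN2, the mitochondrial thioredoxin, was 13.1% higher (log2 fold change 0.18 ± 0.05, adjusted p = 0.0282, edgeR). That call was lost without replicate 2 or 3 of −Dox and without replicate 1 or 3 of +Dox, at adjusted p of 0.0764 to 0.109, and with the transcript length offset at 0.0908. TXNRD1, the cytosolic thioredoxin reductase, had a log2 fold change of −0.13 ± 0.05 with no overlap between the groups and did not pass (adjusted p = 0.073, edgeR). It was called lower by DESeq2 (adjusted p = 0.0196) and by edgeR with at least 10 counts in every library. TXNRD2, the mitochondrial reductase, was at 0.12 ± 0.06 with overlapping groups.

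For glutathione, the enzyme of the last synthesis step rose and the enzyme that recycles glutathione fell. GSS, glutathione synthetase, was at 64.6, 67.9 and 66.7 CPM in −Dox replicates 1 to 3 and 81.7, 75.4 and 81.5 CPM in +Dox replicates 1 to 3. No value overlapped, and the rise was 1.2-fold (log2 fold change 0.26 ± 0.05, adjusted p = 0.00427, edgeR). With an offset for transcript length the log2 fold change was 0.23 and the call was lost (adjusted p = 0.0715).

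GSR, glutathione reductase, was 13.7% lower (126.3 ± 1.23 CPM without and 109 ± 1.32 CPM with Dox, SD, n = 3 each; adjusted p = 0.00495, edgeR). Its groups were far apart for their spread, and it was called under all 14 settings. The subunits of the enzyme that makes the first and rate-limiting step did not pass, with log2 fold changes of 0.15 ± 0.07 for the catalytic GCLC and 0.04 ± 0.05 for the modifier GCLM. GCLM turned to −0.16 with the transcript length offset, and GCLC was called higher without −Dox replicate 1 (adjusted p = 0.0357, edgeR).

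GLRX2, a glutaredoxin of mitochondria and nucleus, was the most abundant of this group per length, at 90 ± 6.94 TPM (SD, n = 6). It was at 67.8, 74.3 and 70.7 CPM in −Dox and 65.7, 62.5 and 65.6 CPM in +Dox. The groups did not overlap, but the log2 fold change of −0.14 ± 0.05 did not pass (adjusted p = 0.102, edgeR), except without −Dox replicate 1 (0.0447). The cytosolic GLRX was at 6.18 ± 0.10 and 7.17 ± 0.33 CPM (SD, n = 3 each), also without overlap (adjusted p = 0.151, edgeR).

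The microsomal glutathione S-transferases moved in different directions. MGST3, which also has peroxidase activity, was at 56.9, 63.2 and 58.6 CPM in −Dox replicates 1 to 3 and 82.8, 78.2 and 87 CPM in +Dox replicates 1 to 3. This was the strongest rise among redox genes with at least 10 CPM, at 1.39-fold (log2 fold change 0.47 ± 0.06, adjusted p = 0.00017, edgeR). MGST1, a membrane-bound transferase and peroxidase, was at 37.5, 35.5 and 38.7 CPM in −Dox and 29.8, 28.6 and 32.5 CPM in +Dox. It fell by 18.7% (log2 fold change −0.30 ± 0.06, adjusted p = 0.00617, edgeR). Neither gene overlapped between the groups, and both were called under all 14 settings.

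GSTP1 was at 620.3, 703.5 and 645.6 CPM in −Dox and 754.1, 676.2 and 731.5 CPM in +Dox. The groups overlapped, as +Dox replicate 2 lay below −Dox replicate 2 (log2 fold change 0.13 ± 0.06, adjusted p = 0.138, edgeR). MGST2, which can form leukotriene C4, had a log2 fold change of 0.19 ± 0.06 with no overlap and did not pass (adjusted p = 0.0634, edgeR). It was called higher by DESeq2 (adjusted p = 0.0387), and by edgeR with no count filter or with at least 10 counts in every library.

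NQO2 fell, while NQO1 did not pass the test. Both encode quinone reductases, NQO1 using NADH or NADPH and NQO2 using dihydronicotinamide riboside. NQO2 (chromosome 6, 2987987 to 3019755) was at 127.4, 140.2 and 136.3 CPM in −Dox replicates 1 to 3 and 102.5, 98.4 and 108 CPM in +Dox replicates 1 to 3. The groups did not overlap, and the level fell by 23.5% (log2 fold change −0.39 ± 0.05, adjusted p = 0.000403, edgeR), under all 14 settings. Of the NQO2 exon bases, 12.04% overlap LINC01011 on the same strand, which averaged 1706 counts per library, so how reads of the overlap were divided between these genes is uncertain. NQO1 averaged 109.7 ± 7.69 CPM without Dox and 99.98 ± 9.20 CPM with Dox (SD, n = 3 each), with overlapping groups (log2 fold change −0.13 ± 0.07, adjusted p = 0.226, edgeR). The log2 fold changes of NQO1 and NQO2 were not tested against each other.

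NQO2 also had the redox isoform with the smallest p. NQO2-204 lacks an internal exon of 114 bases that the main transcript NQO2-205 includes, at chr6:3015530-3015643 (GRCh38, plus strand). The exon is shown because it separates the NQO2 isoforms whose levels differ below; exon bases are in capitals, with 50 intron bases on each side in lower case.
NQO2 exon: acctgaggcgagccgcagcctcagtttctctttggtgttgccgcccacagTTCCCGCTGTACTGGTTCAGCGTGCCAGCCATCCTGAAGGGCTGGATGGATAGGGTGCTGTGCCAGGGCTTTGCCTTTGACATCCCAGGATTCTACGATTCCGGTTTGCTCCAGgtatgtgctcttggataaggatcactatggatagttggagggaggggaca

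The upstream flank of this NQO2 exon holds 17 cytosines in 50 bases and a single CCC run. Transcripts that span the exon and skip it were at 35.6, 33 and 33 TPM in −Dox replicates 1 to 3 and at 17.7, 21 and 17.5 TPM in +Dox replicates 1 to 3. The 3 transcripts that include the exon were at 104.9, 106.9 and 111.7 TPM in −Dox and 83, 84.3 and 90.1 TPM in +Dox. Both forms were lower in every +Dox library than in every −Dox library, the skipped form by the larger share. Of the TPM on the 5 spanning transcripts, the exon was included in 76.1% ± 1.28 in −Dox and 82.1% ± 1.86 in +Dox (SD, n = 3 each). The difference of 5.97 percentage points is given with no test, since the exon was chosen for the isoform of smallest p in the same libraries. Salmon divides reads between transcripts, so these levels are estimates.

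**Figure D4:**
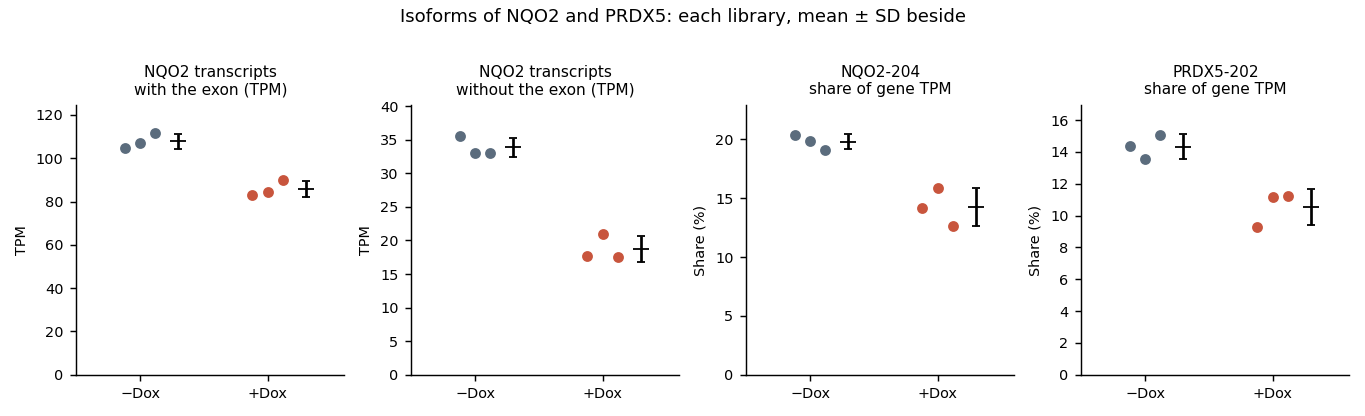
TPM of NQO2 transcripts with and without the exon of 114 bases (left pair of panels), and shares of NQO2-204 and PRDX5-202 in the TPM of their genes (right pair), y axes from 0. Points are the 3 −Dox (grey) and 3 +Dox (red) libraries with mean ± SD beside; in all 4 panels the +Dox libraries lie below the −Dox libraries.

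Over all genes, 36691 transcript shares were tested with limma and 33 (0.0899%) passed an adjusted p of 0.05. Of these transcripts, 73 belonged to 26 redox genes, and 0 of the 73 passed. A result of 0 does not show that shares were equal between the groups. At an unadjusted p under 0.05 there were 6 (8.22%) in 4 genes, NQO2, PRDX5, SOD2 and GCLM, a share near the 7.5% of all transcripts, and the smallest adjusted p was 0.622. Shares did not overlap between the groups for 17 of the 73 (23.3%), against 14.4% of all transcripts tested.

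NQO2-204 held 20.4%, 19.9% and 19.1% of NQO2 TPM in −Dox replicates 1 to 3 and 14.2%, 15.9% and 12.7% in +Dox replicates 1 to 3. All +Dox shares were lower (log2 odds change −0.57 ± 0.17, adjusted p = 0.622, limma). PRDX5-202, which lacks the exons chr11:64319734-64319868 and chr11:64320661-64320792 of the main PRDX5 transcript, held 14.4%, 13.6% and 15.1% in −Dox and 9.25%, 11.2% and 11.2% in +Dox. Here too the groups did not overlap (log2 odds change −0.51 ± 0.17, adjusted p = 0.647, limma). SOD2-209 held 8.6% ± 0.86 of SOD2 in −Dox and 5.34% ± 1.67 in +Dox (SD, n = 3 each). GCLM-201, the main GCLM transcript, held 58% ± 5.05 and 67.9% ± 4.21. MGST3-205, the main MGST3 transcript by annotation, held 4.4% ± 1.56 and 7% ± 1.62, with overlapping groups.

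Shares of other isoforms are given as values. GPX4-210 held 89.2% ± 0.75 of GPX4 in −Dox and 88.7% ± 1.40 in +Dox (SD, n = 3 each), and NFE2L2-201 held 78.2% ± 2.28 and 80.2% ± 2.52 of NFE2L2. TXNRD1-201 held 42.6% ± 1.22 and 42.7% ± 4.68 of TXNRD1. The groups overlapped for all 3 of these isoforms.

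Among the 4 NRF2 control genes, the repressor BACH1 rose, and NFE2L2, KEAP1 and SQSTM1 did not pass the test. BACH1 (chromosome 21, 29194071 to 29630751) was at 112.5, 107.5 and 100.8 CPM in −Dox replicates 1 to 3 and 135.8, 146.1 and 151.4 CPM in +Dox replicates 1 to 3. The groups were well separated, and the rise was 1.35-fold (log2 fold change 0.43 ± 0.06, adjusted p = 0.000265, edgeR) under all 14 settings. BACH1 protein is inactivated by heme and was not measured here.

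NFE2L2 was at 130.1, 120.7 and 123.6 CPM in −Dox and 106.6, 115.5 and 118.2 CPM in +Dox. The groups did not overlap, but the log2 fold change of −0.14 ± 0.05 did not pass (adjusted p = 0.0994, edgeR). By DESeq2 it did (adjusted p = 0.0433). Of the NFE2L2 exon bases, 23.4% overlap the abundant HNRNPA3 on the opposite strand, and the strand setting of the counting is not stated, so reads of the overlap cannot be told apart. A further 13.6% overlap the gene ENSG00000213963 on the same strand, whose reads no strand setting would separate.

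KEAP1, the adaptor that targets NRF2 for degradation, was at 44.9, 43 and 48.3 CPM in −Dox and 47.6, 46.2 and 46 CPM in +Dox. SQSTM1, which can sequester KEAP1, was at 92.2, 99.6 and 107.3 CPM in −Dox and 94.6, 94 and 93.8 CPM in +Dox. The values of both overlapped between the groups, with log2 fold changes of 0.04 ± 0.06 and −0.08 ± 0.06 (adjusted p = 0.72 and 0.377, edgeR). Of the SQSTM1 exon bases, 21% overlap MRNIP on the opposite strand, which averaged 2332 counts per library. Reads of that overlap cannot be told apart either.

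Promoters were read for the core of the antioxidant response element, TGACNNNGC, and for TGAGTCA, the core bound by AP-1 and NFE2, on both strands. A match of both can cover the same bases, as in GSTP1 and AIFM2. RefSeq windows of 250 bases before to 50 after a transcript start (GRCh38.p14), of which a gene can have several, were matched for 33 of the 40 redox genes, not for PRDX1, PRDX6, SOD1, TXN2, GSR, GSS and MGST2. TGACNNNGC occurred in 7 of 53 redox windows and in 13.3% of all 35116 windows. TGAGTCA occurred in 3 redox windows and in 4.95% of all. By gene, TGACNNNGC was found for 1 of the 12 called redox genes with a window (MGST1, from base 31 after a start) and for 5 of the 21 others, namely TXNRD1, GCLM, GSTP1, KEAP1 and AIFM2, against 16.1% of all genes with a window. TGAGTCA was found for BACH1 alone among the called genes, and for 6.05% of all genes.

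The matches before a RefSeq start are shown so that the letters found can be read beside the changes given above. Capitals mark the match, and each line reads 5′ to 3′ along the gene. The match in BACH1 is TGAGTCA, and the others are TGACNNNGC or its reverse complement. TXNRD1 and KEAP1 have further matches that are not shown.
BACH1: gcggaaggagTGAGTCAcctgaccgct
GSTP1: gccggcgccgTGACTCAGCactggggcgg
TXNRD1: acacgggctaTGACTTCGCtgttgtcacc
GCLM: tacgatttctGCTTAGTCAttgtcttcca
KEAP1: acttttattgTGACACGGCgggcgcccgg
AIFM2: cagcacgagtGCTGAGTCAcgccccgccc
The matches begin 48 bases before the RefSeq start of their window for BACH1 (chr21:29298864-29298890, plus strand), 66 for GSTP1 (chr11:67583736-67583764, plus), 99 for TXNRD1 (chr12:104215670-104215698, plus), 34 for GCLM (chr1:93909446-93909474, minus), 54 for KEAP1 (chr19:10502807-10502835, minus) and 22 for AIFM2 (chr10:70132829-70132857, minus). These starts need not be the outermost ones of the GENCODE annotation. The stretches of BACH1, KEAP1 and AIFM2 lie within the annotated span of the gene, those of GSTP1 and GCLM lie partly within it, and that of TXNRD1 lies before it. Of these 6 genes BACH1 was called. A match is a description of letters and not a bound site.

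Of the ferroptosis genes, ACSL4, which loads polyunsaturated fatty acids into membrane lipids, was at 162.7, 148.6 and 142.5 CPM in −Dox replicates 1 to 3 and 121.7, 130.6 and 136.1 CPM in +Dox replicates 1 to 3. The groups did not overlap, and the level fell by 14.4% (log2 fold change −0.22 ± 0.06, adjusted p = 0.0209, edgeR). The call was lost without −Dox replicate 1, +Dox replicate 1 or +Dox replicate 2, at adjusted p of 0.0516 to 0.0906, and with the transcript length offset at 0.0807. AIFM2, which protects membranes by reducing coenzyme Q, had a log2 fold change of 0.06 ± 0.07 with overlapping groups.

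LRRK2, a large kinase linked to Parkinson disease and listed by the study with reactive oxygen species genes, rose from a low level. Its counts were 48, 79 and 103 in −Dox replicates 1 to 3 and 195, 262 and 225 in +Dox replicates 1 to 3. The lowest +Dox count was well above the highest −Dox count. The increase was 2.92-fold (log2 fold change 1.55 ± 0.26, adjusted p = 0.00161, edgeR), and each fit that left out 1 library called it, with log2 fold changes of 1.26 to 1.86.

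A wider list of 84 other genes of these pathways, also chosen with earlier results of these data known, was read in the same fit. Of the 76 tested, 16 were higher and 8 lower after PCBP1 OE (31.6% called, against 15.8% of all genes tested). Among genes with a mean of at least 10 CPM, 15 of 53 (28.3%) were called, close to the 26.6% of all such genes. The higher genes were ME1, IDH2, AKR1C1, AKR1C2, FTH1, TXNRD3, MSRB2, SESN3, CCS, GSTK1, GSTM2, GSTM3, GSTM4, GSTZ1, GCH1 and CYBB. The lower genes were GLRX3, SESN2, GGT5, CHAC1, OPLAH, MAFF, MAFK and POR. Several of these calls were lost in many settings, as GCH1 was called in 5, TXNRD3 in 6, POR in 7 and SESN2 in 8 of the 14. The median log2 fold change of the 76 was 0.02. Without +Dox replicate 1 there were 10 higher calls, and without −Dox replicate 3 there were 3 lower calls. HMOX1, the heme oxygenase gene and a classical BACH1 target, is listed at 0 in all 6 libraries, as are CBR3, ALOX15 and NOX4. The Salmon index is not given, so absent expression and a failure to count these genes cannot be told apart.

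GSTZ1, a transferase of tyrosine breakdown, was at 4.94, 4.99 and 4.34 CPM in −Dox replicates 1 to 3 and 8.41, 8.31 and 8.63 CPM in +Dox replicates 1 to 3. It had the smallest p of the list (log2 fold change 0.83 ± 0.10, adjusted p = 0.000148, edgeR). IDH2, a mitochondrial source of NADPH, was at 27.1, 28.5 and 30.7 CPM in −Dox and 43.6, 36.9 and 40.8 CPM in +Dox (log2 fold change 0.49). ME1, a cytosolic source of NADPH, was at 17.9, 19.1 and 17.8 CPM in −Dox and 23.2, 24 and 23.3 CPM in +Dox (log2 fold change 0.36). None of the 3 genes overlapped between the groups. AKR1C2, an aldo-keto reductase, and CYBB, the catalytic subunit of the phagocyte NADPH oxidase, rose by log2 fold changes of 0.38 and 0.73. AKR1C2 is close in sequence to AKR1C1 and the GSTM genes to each other, so their counts are uncertain.

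The lower genes of smallest p were read in the same way. OPLAH, which opens 5-oxoproline to glutamate, was at 53.1, 56.6 and 55.3 CPM in −Dox replicates 1 to 3 and 43.4, 39.5 and 37.8 CPM in +Dox replicates 1 to 3. Its log2 fold change was −0.45 ± 0.06 (adjusted p = 0.000331, edgeR). CHAC1, which cleaves glutathione, was at 3.45, 1.12 and 1.53 CPM in −Dox and 0.47, 0.61 and 0.54 CPM in +Dox, a log2 fold change of −1.91 ± 0.37 (adjusted p = 0.00384, edgeR). In both genes the groups did not overlap, and −Dox replicate 1 was far above the other −Dox libraries for CHAC1. Without that library the log2 fold change of CHAC1 was −1.29, and the call held. GGT5, a gamma-glutamyltransferase, was 2.14-fold lower, and 3.69-fold lower with the transcript length offset. Its call was lost without −Dox replicate 3 or +Dox replicate 3 (adjusted p = 0.0663 and 0.0591, edgeR). MAFF, a small MAF partner of NRF2 and BACH1, had a log2 fold change of −0.42, and its call was lost without replicate 2 of either group (0.0509 and 0.0636) and with the length offset (0.0604). GLRX3, an iron-sulfur glutaredoxin, had one of −0.20, with the call lost without −Dox replicate 3 or +Dox replicate 1 or 2 (0.0555 to 0.0623) and with the length offset (0.143).

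**Figure D5:**
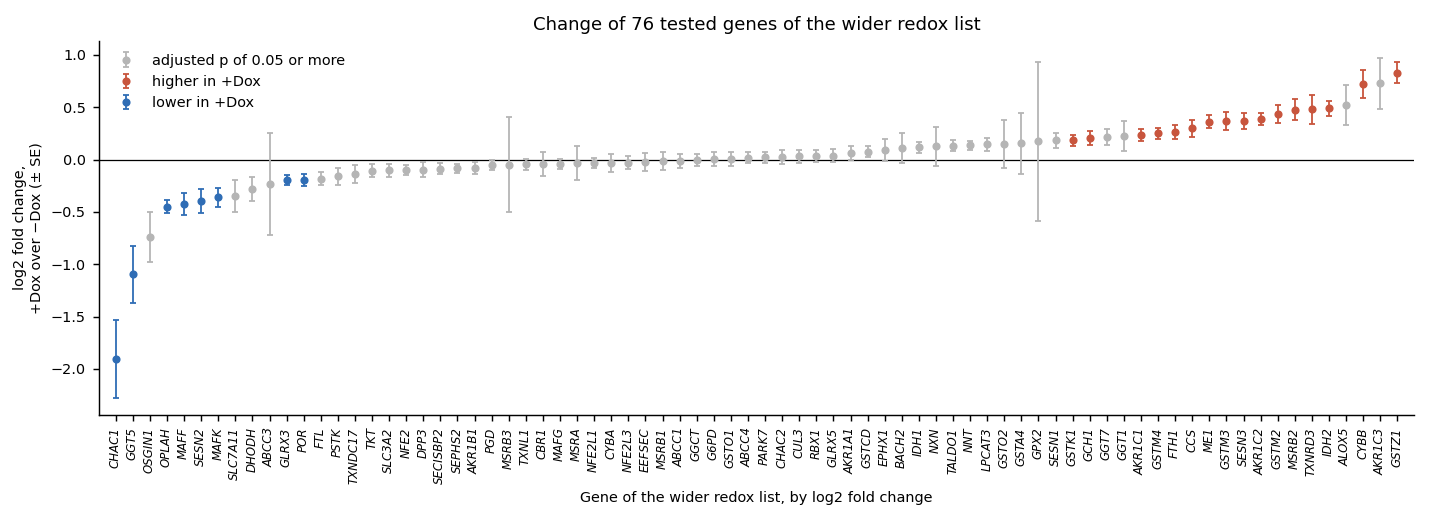
Log2 fold change of +Dox over −Dox (y axis) with SE bars for the 76 tested genes of the wider redox list, ordered by value (x axis). Red marks the 16 genes called higher, blue the 8 called lower and grey the others; CHAC1 and GGT5 are the lowest of the called genes and GSTZ1 and CYBB the highest.

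The identity of the cells was read from marker genes. Of 12 markers of K562 cells, 11 were above 10 TPM in both groups. Some of them moved with PCBP1 OE. EPOR, the erythropoietin receptor gene, was at 7.46 ± 0.18 TPM in −Dox and 14.1 ± 0.38 TPM in +Dox (SD, n = 3 each). EPOR and the red cell transcription factor genes TAL1 and KLF1 were among the markers called higher, and HBZ and TFRC were called lower. CAT and PRDX2 are abundant in red cells, and the part of red cell gene changes in their rise was not tested. In bulk RNA, more cells of a kind and more RNA per cell cannot be told apart. Of 18 markers of T cells, B cells, monocytes, epithelium, fibroblasts and liver, 12 were under 1 TPM in every library. Those above it included CD3D, LYZ, EPCAM, KRT8 and KRT18, of which KRT8 was the most abundant at 203.3 ± 27.4 TPM in −Dox and 182.6 ± 15 in +Dox. CD3E and CD2 of T cells, MS4A1 and CD79A of B cells, CD14 and CSF1R of monocytes and CDH1 of epithelium were all under 1 TPM. LYZ was lower in +Dox (log2 fold change −0.47 ± 0.10, adjusted p = 0.00837, edgeR).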

How the data were processed

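Transcripts of 6 polyA RNA libraries were quantified by the authors with Salmon 1.10.2. The tool and the build hg38 are from the submitters' processing notes. The deposited files hold 252045 transcripts, with an estimated count (unscaled for depth or length) and a TPM value from Salmon. Replicates were not pooled. The index and strand setting are not given in the sources used here. Effective lengths served the length offset.

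Transcripts were matched to GENCODE 44 on GRCh38 (433 did not match). Estimated counts were summed per gene and rounded. The total per library was 70905656 to 84177316. Genes with a mean count above 10 (21045) were fitted with edgeR 4.0.16 (glmQLFit, glmQLFTest, TMM factors 0.974 to 1.03) in R 4.3.3, called at adjusted p under 0.05, and called DEGs where the absolute log2 fold change was also above 1. CPM values are TMM normalized. SE is the absolute log2 fold change over the square root of F. Isoform shares were tested with limma 3.58.1 on log2 odds of TPM (pseudocount 0.1), for transcripts with a mean share of 5% to 95%, a mean of at least 10 counts and a gene mean of at least 1 TPM. DESeq2 1.42.0, RLE size factors, other count filters, a transcript length offset, each library left out and a replicate block were alternatives.

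The redox genes, the wider list, the markers and the tests were chosen with earlier results of these data known. Library values are given for PCBP1, for redox genes past adjusted p of 0.05 with an absolute log2 fold change of at least 0.25, for the 4 NRF2 control genes and for the most abundant gene of each role. Of the wider list, up to 5 genes of smallest p in each direction are named with values. Isoforms are given for the 5 genes of smallest p and for NQO2, GPX4, TXNRD1 and NFE2L2. GSR, SOD2, TXN2, EPOR, KRT8 and LYZ were named outside this rule. Scripts were tested on simulated data. Python 3.11.15, pandas 2.3.3, scipy 1.17.1 and matplotlib 3.10.9 were used. Values of some marker genes are not reported here.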

Additional observations from a re-analysis of the deposited data

How the results depend on the processing

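Over 13 alternatives, 462 of 504 recomputed fold changes of redox genes kept their direction and their side of the threshold, 24 lost and 10 gained the call, and 8 changed sign. No redox gene called in the report changed sign, and 9 of the 15 were called in all 14 fits. The calls of SOD2, SOD3, PRDX5, TXN2, GSS and ACSL4 did not hold in all. The transcript length offset gave 914 genes higher and 969 lower over all genes (1717 and 1616 in the report), 10 higher and 3 lower in the wider list, and 7 and 5 redox genes. DESeq2 called 10 redox genes higher and 9 lower. The absence of a count filter gave 515 DEGs against 308, and the demand for at least 10 counts in every library, which drops SOD3, left 1 redox DEG. With each library left out, 6 to 9 redox genes were higher and 4 to 6 lower, 1 to 2 were DEGs, 1163 to 1616 of all genes were higher and 1067 to 1697 lower (the fewest lower without −Dox replicate 2), and in the wider list 10 to 17 were higher and 3 to 9 lower. Calls of isoform shares numbered 11 with a pseudocount of 1 TPM, 56 on estimated counts and 30 to 52 with each library left out (52 without −Dox replicate 3). None was in a redox gene. Genes with small changes changed sign. With each library left out, SOD1 ranged from −0.053 to 0.024 (positive without −Dox replicate 2, 0.023, and +Dox replicate 2), GPX4 from −0.067 to 0.058 (positive without the same libraries, 0.042 without the first), SRXN1 from −0.121 to 0.004 (positive without −Dox replicate 3), KEAP1 from −0.006 (without −Dox replicate 2) to 0.084, and the isoform GPX4-210 from −0.182 to 0.018 (positive without +Dox replicate 2). With the length offset GPX4 was at 0.008 and GCLM at −0.159. The causes were not tested.

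Deviations of same-numbered libraries correlated at 0.008, −0.06 and −0.003, so no shared replicate effect was seen. The labels do not say whether same-numbered libraries were paired. A replicate block gave 8 redox genes higher and 4 lower (SOD2, TXN2 and ACSL4 were not called, at adjusted p of 0.104, 0.0847 and 0.0631), 1329 and 1161 of all genes, and 0 isoform shares against 33. Low counts limit the precision for SOD3, GPX1, GPX3 and LRRK2.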
